A study of Mus musculus with 8 samples.

Results

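Acute phase proteins are plasma and tissue proteins whose liver output changes in inflammation, and 10 of their genes are described here in newborn mouse liver: the pentraxins Crp and Apcs, the serum amyloids Saa1 and Saa2, the orosomucoids Orm1 and Orm2, haptoglobin (Hp), hemopexin (Hpx), the metalloreductase Steap4 and the lipocalin Lcn2. Members were the probe sets annotated with 1 of these symbols, which gave 12 of the 45037 probe sets that are not controls, for 10 of 18193 named genes. A probe set is a group of short probes for 1 transcript region. Liver RNA came from 4 pups lacking glycerol kinase and from 4 age-matched wild-type littermates, each on its own Affymetrix Mouse 430 2.0 array. All 8 were inbred C57BL/6J mice on day of life 3, labelled male, and the labels name no treatment, transgene or Cre driver. Glycerol kinase phosphorylates glycerol, and the series' design states that knockout pups of this age are hypoglycemic and acidotic. How the gene was disrupted is not given in the sources used here.

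In the acute phase response, macrophages release interleukin 6, interleukin 1 and tumour necrosis factor. Hepatocytes answer through STAT3, C/EBP factors and NF-kappaB, raise the genes of positive acute phase proteins and lower those of negative ones such as albumin. Glucocorticoids strengthen the response. The inducible serum amyloids and orosomucoids respond strongly in mouse liver, whereas mouse Crp, unlike human CRP, responds little and Apcs is the main responsive pentraxin.

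The values are GCOS signals on a linear scale, and the number of arrays limits how precise they are, log2 differences having a median standard error of 0.19. One array, labelled wild type 4 and male, looked female: its Xist signal was 10506 where the others had 196 to 396, and its Eif2s3y signal, from the Y chromosome, was 1.3 where the others had 685 to 1164. Replicates 1 and 2 of both genotypes stood apart from replicates 3 and 4 in the transferrin receptor controls, whose 3'/5' ratio was 6.50 to 6.72 in the first and 4.21 to 4.83 in the second. The labels do not say what these replicates share. The pyruvate carboxylase controls, whose 3'/5' ratio reflects how intact the RNA was, were highest on knockout 1 (7.03) and knockout 2 (4.93), the remaining arrays having 2.06 to 3.46. Not all controls set knockout 2 apart. The actin 3'/5' ratio was 1.74 on knockout 1 and 1.21 to 1.32 on the others, with 1.27 on knockout 2. That of Gapdh ran from 0.77 to 0.90 over all arrays. Results are therefore also given within replicates 1-2 and within replicates 3-4, and without wild type 4. No label says whether the pups of a group shared a litter. In whole liver, fewer cells of a type and less RNA per cell cannot be told apart.

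The 10 genes fell into 2 classes by level. The probe sets of Saa1, Saa2, Orm1 and Orm2, 5 in all, reached a signal of 200 on 0 of the 8 arrays and ranged from 3.9 to 175. The other 7 probe sets, for 6 genes, reached it on all 8 and ranged from 487 to 28689. The test took the 20395 probe sets (45.3%) that reached 200 on 4 or more arrays, so 6 members were tested and 4 were not. Of the 6, 0 rose and 0 fell in the knockout by limma's moderated test with Benjamini-Hochberg adjusted p under 0.05. Over all probe sets tested, 0.299% passed this threshold. At an unadjusted p under 0.05 there were 2 of the 6 (Crp and Steap4), beside 14.4% of all probe sets tested. The median log2 difference, knockout minus wild type, was 0.14 over the 6 members and -0.02 over the 10878 genes tested, and 5 of the 6 lay above 0, beside 46.5% of genes. The 5 include Apcs, which stood at 0.00 ± 0.11 (SE). With 1 array left out the members' median ran from 0.07 to 0.19, at 0.07 without knockout 1, at 0.09 without wild type 1 or wild type 2 and at 0.19 without wild type 4.

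**Figure D1:**
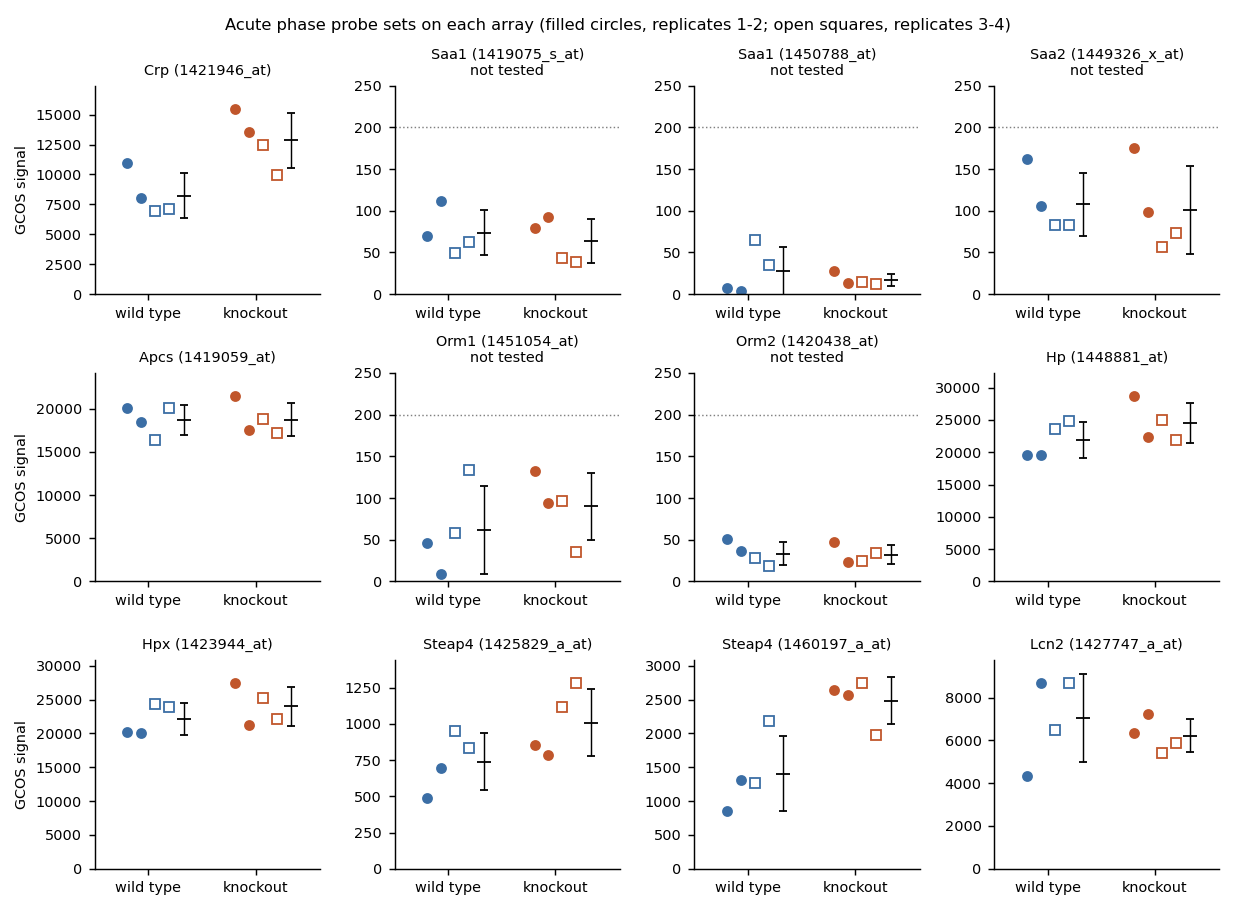
GCOS signal (linear, y axis) of each of the 12 acute phase probe sets on the 4 wild-type and 4 knockout arrays; filled circles are replicates 1-2, open squares replicates 3-4, and black bars the mean ± SD. The Saa1, Saa2, Orm1 and Orm2 probe sets stay below the dotted line at 200, and the genotypes overlap in every panel.

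Crp encodes C-reactive protein, a pentraxin that binds phosphocholine on microbes and damaged cells and activates complement. It lies on chromosome 1, at chr1:172698056-172699966 in GRCm38.p6. Its probe set had signals of 10926, 7996, 6911 and 7097 on wild type 1 to 4, and of 15493, 13548, 12458 and 9968 on knockout 1 to 4. Each knockout array lay above at least 3 of the 4 wild-type arrays, and the groups overlapped through knockout 4, which lay below wild type 1. The mean was 8233 ± 1857 in wild type and 12867 ± 2305 in the knockout (SD, n = 4 each), a ratio of 1.56. On the log2 scale the difference was 0.65 ± 0.17 (SE), which did not pass over all probe sets (limma adjusted p = 0.132), and 2.91% of the probe sets tested had a larger positive difference.

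Within replicates 1-2 the difference of Crp was 0.63 ± 0.18, and within replicates 3-4 it was 0.67 ± 0.18 (SE; limma adjusted p = 0.0901 and 0.399). In each of these replicate pairs both knockout arrays lay above both wild-type arrays, as was the case for 7.87% of the probe sets tested. The difference between the pairs was 0.04 ± 0.26 (limma adjusted p = 0.966). The level itself was lower in replicates 3-4 than in 1-2, by a log2 difference of -0.40 ± 0.13 (limma adjusted p = 0.125). Without wild type 4 the knockout difference of Crp was 0.59 (limma adjusted p = 0.252), and with the replicate pair as a block it was 0.65 (limma adjusted p = 0.0514). That block called 0.902% of all probe sets tested.

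The promoter of Crp is shown because this gene had the smallest p of the members. It is the 250 bases before the RefSeq start (GRCm38.p6, chr1:172697806-172698055, plus strand), written 5′ to 3′, with motif matches in capitals.
Crp: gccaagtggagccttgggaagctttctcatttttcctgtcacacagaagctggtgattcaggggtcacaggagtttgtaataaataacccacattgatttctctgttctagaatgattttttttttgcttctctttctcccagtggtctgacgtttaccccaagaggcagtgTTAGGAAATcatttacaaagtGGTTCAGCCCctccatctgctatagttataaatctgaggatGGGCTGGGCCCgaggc
The motifs searched on both strands were the STAT palindrome TTCNNNGAA, the type I interleukin 6 element TTNNGNAAT, the type II element CTGGGAA, the NF-kappaB pattern (GGG, any 5 bases, CC) and the C/EBP palindrome TTGCGCAA. These stood in 7.02%, 10.2%, 9.10%, 45.8% and 0.164% of 32851 RefSeq promoters of the same length. In Crp the type I element matched from 78 to 70 bases before the start, and the NF-kappaB pattern matched 3 times, with 2 matches that overlap each other between 16 and 6 bases before the start. RefSeq's table held promoters for 8 of the 10 members, those of Orm1 and Hp not among them. A match says only that these letters are present.

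Apcs encodes serum amyloid P component, the pentraxin that coats amyloid and chromatin. Its signals were 20053, 18408, 16324 and 20027 on wild type 1 to 4 and 21448, 17506, 18801 and 17178 on knockout 1 to 4. The arrays of the genotypes interleaved, with a wild-type mean of 18703 ± 1763 and a knockout mean of 18733 ± 1941 (SD, n = 4 each). The log2 difference was 0.00 ± 0.11 (SE; limma adjusted p = 0.996), with 0.01 and -0.01 within the replicate pairs, and 6 of the 23 alternative analyses turned its sign, quantile normalization among them. The spread of Apcs between arrays was small, the coefficient of variation being 9.43% for wild-type and 10.4% for knockout arrays. Its promoter window held 1 STAT palindrome and 2 matches of the type II element, and 0 of the other motifs.

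Saa1 and Saa2 encode serum amyloid A, apolipoproteins of high-density lipoprotein that liver makes in large amounts in acute inflammation. The genes are neighbours on chromosome 7. The probe set annotated as Saa2 had signals of 162, 106, 82.8 and 82.5 on wild type 1 to 4 and of 175, 98.6, 56.5 and 73.2 on knockout 1 to 4, its groups overlapping. That of 175 on knockout 1 was the value nearest below the minimum of 200 among the members, and the lowest signal above it was 487, of Steap4 on wild type 1. The brighter probe set annotated as Saa1 ran from 49.7 to 112 in wild type and from 39.1 to 92.9 in the knockout. The accession it was designed on belongs to Saa2 in RefSeq, and the name of its probe set type marks probes shared between transcripts. The other Saa1 probe set ran from 3.9 to 64.9 in wild type and from 12 to 27.9 in knockout livers. Which serum amyloid gene a signal came from is therefore uncertain. Without the signal filter their log2 differences were between -0.20 and -0.14 (limma adjusted p from 0.929 to 0.952 over 45037 probe sets). At this signal no difference was detectable, and a level in these genes is neither shown nor excluded.

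The Saa1 and Saa2 promoters are shown because both genes stayed below the signal minimum in both genotypes. They are the 250 bases before a RefSeq start of each gene in GRCm38.p6, with motif matches in capitals. The windows are chr7:46742981-46743230 on the minus strand for Saa1 and chr7:46751583-46751832 on the plus strand for Saa2. The RefSeq span of Saa1, chr7:46740497-46743181, reaches into its window, so the start used for Saa1 is not the outermost one of the gene.
Saa1: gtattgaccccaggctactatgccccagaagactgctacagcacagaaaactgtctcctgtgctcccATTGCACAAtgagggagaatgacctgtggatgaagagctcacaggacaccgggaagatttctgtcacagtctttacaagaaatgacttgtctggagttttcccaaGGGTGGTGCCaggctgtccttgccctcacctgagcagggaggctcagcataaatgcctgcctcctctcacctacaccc
Saa2: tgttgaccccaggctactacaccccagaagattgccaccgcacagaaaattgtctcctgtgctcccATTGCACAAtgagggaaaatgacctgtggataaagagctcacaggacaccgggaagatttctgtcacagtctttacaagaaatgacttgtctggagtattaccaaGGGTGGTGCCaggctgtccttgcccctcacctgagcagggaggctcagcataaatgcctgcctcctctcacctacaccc
Over 249 aligned bases 238 (95.6%) were the same. Both held a type I interleukin 6 element on the strand opposite to the gene and 1 match of the NF-kappaB pattern at nearly the same distance from the start, 78 to 69 bases before it in Saa1 and 79 to 70 in Saa2.

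Orm1 and Orm2 encode alpha-1-acid glycoprotein, a lipocalin of plasma that binds drugs and steroids. They are neighbouring paralogs on chromosome 4, so their probe sets may bind both. Orm1 had signals of 45.6, 9.3, 57.5 and 134 on wild type 1 to 4 and of 133, 93.8, 96.7 and 35.8 on knockout 1 to 4. Orm2 ran from 18.4 to 50.3 in wild type and from 22.9 to 47.2 in the knockout. All 16 of these signals lay below 200, and the groups overlapped for both genes. Without the signal filter the log2 differences were 0.62 ± 0.52 for Orm1 and -0.02 ± 0.29 for Orm2 (SE; limma adjusted p = 0.809 and 0.993). The Orm2 promoter window held the C/EBP palindrome, from 120 to 113 bases before the start, which 54 of the 32851 promoters hold.

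Hp encodes haptoglobin, which captures haemoglobin set free from red cells, and Hpx encodes hemopexin, which captures free haem. Both carry their cargo to uptake receptors. Hp had signals of 19596, 19499, 23611 and 24854 on wild type 1 to 4 and of 28689, 22310, 25002 and 21947 on knockout 1 to 4. Knockout 1 was the highest array for Hp and knockout 3 also lay above every wild-type array, whereas knockout 2 and knockout 4 lay between the wild-type arrays. The mean was 21890 ± 2752 in wild type and 24487 ± 3115 in the knockout (SD, n = 4 each), with a log2 difference of 0.16 ± 0.12 (SE; limma adjusted p = 0.578).

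Hpx had signals of 20186, 20073, 24318 and 23951 on wild type 1 to 4 and of 27412, 21238, 25254 and 22139 on knockout 1 to 4. As for Hp, wild type 1 and wild type 2 were the lowest arrays and knockout 1 the highest, and the groups overlapped. The mean was 22132 ± 2317 in wild type and 24011 ± 2846 in the knockout (SD, n = 4 each), with a log2 difference of 0.12 ± 0.11 (SE; limma adjusted p = 0.680). The signals of Hp, Hpx and Apcs reached up to 74.2%, 72.3% and 67.3% of the highest signal on the same array, which ran from 29266 to 38679. Whether these probe sets were near the top of the scanner's range was not tested.

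Within replicates 1-2 the log2 difference of Hp was 0.37 ± 0.14 and that of Hpx 0.26 ± 0.14, and within replicates 3-4 they were -0.05 ± 0.14 and -0.03 ± 0.14 (SE; limma adjusted p = 0.162, 0.308, 0.970 and 0.986). The difference between the replicate pairs did not pass the test for either gene (-0.42 ± 0.20 and -0.29 ± 0.20; limma adjusted p = 0.520 and 0.622). With 1 array left out of the whole comparison, Hp ran from 0.08 to 0.23 and Hpx from 0.05 to 0.17. Hp and Hpx had alike profiles, with a Pearson r of 0.969 over the 8 arrays, as a description. These points share the arrays, their scaling and the replicate pairs. Of 10877 other genes, Hpx ranked 6 in likeness to Hp. The 3 most like Hp were the retinol carrier Rbp4 (r = 0.994), the ribosomal protein gene Rpl8 (0.985) and prothrombin, F2 (0.978). For Hpx they were Igfbp2 (0.987), the ATP synthase subunit gene Atp5g3 (0.985) and Rbp4 (0.984).

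Steap4 encodes a membrane metalloreductase that reduces iron and copper and is induced by inflammatory cytokines. It had the largest difference of the members. Its brighter probe set had signals of 856, 1314, 1265 and 2179 on wild type 1 to 4 and of 2646, 2571, 2740 and 1976 on knockout 1 to 4. Knockout 1 to 3 lay above every wild-type array, and the groups overlapped because knockout 4 lay below wild type 4, the array with the female signal. The mean was 1404 ± 556 in wild type and 2483 ± 345 in the knockout (SD, n = 4 each), a ratio of 1.77. The log2 difference was 0.88 ± 0.25 (SE; limma adjusted p = 0.146), and 1.18% of the probe sets tested had a larger positive difference.

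Without wild type 4 the log2 difference of Steap4 was 1.12 ± 0.20 (limma adjusted p = 0.0878). With the replicate pair as a block as well it was again 1.12 and passed the threshold (limma adjusted p = 0.0467), the 1 call of a member among the 23 alternative analyses. Within replicates 1-2 the difference was 1.29 ± 0.30 and within replicates 3-4 0.48 ± 0.30 (limma adjusted p = 0.0563 and 0.755), and the difference between them did not pass (-0.80 ± 0.42; limma adjusted p = 0.537). The second probe set had signals of 487, 692, 947 and 830 on wild type 1 to 4 and of 854, 786, 1116 and 1279 on knockout 1 to 4. It gave a log2 difference of 0.45 ± 0.23 (SE; limma adjusted p = 0.392), with 0.49 and 0.42 within the replicate pairs, and both knockout arrays lay above both wild-type arrays in each pair. With the replicate pair as a block and no wild type 4 it stood at 0.42 and did not pass (limma adjusted p = 0.212). This probe set had its highest knockout signal on knockout 4, where the brighter one had its lowest. On the second probe set replicates 3-4 stood above replicates 1-2 by 0.57 ± 0.14 and on the brighter one by 0.24 ± 0.24 (limma adjusted p = 0.0714 and 0.599), in a comparison that called 2.47% of all probe sets tested.

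**Figure D2:**
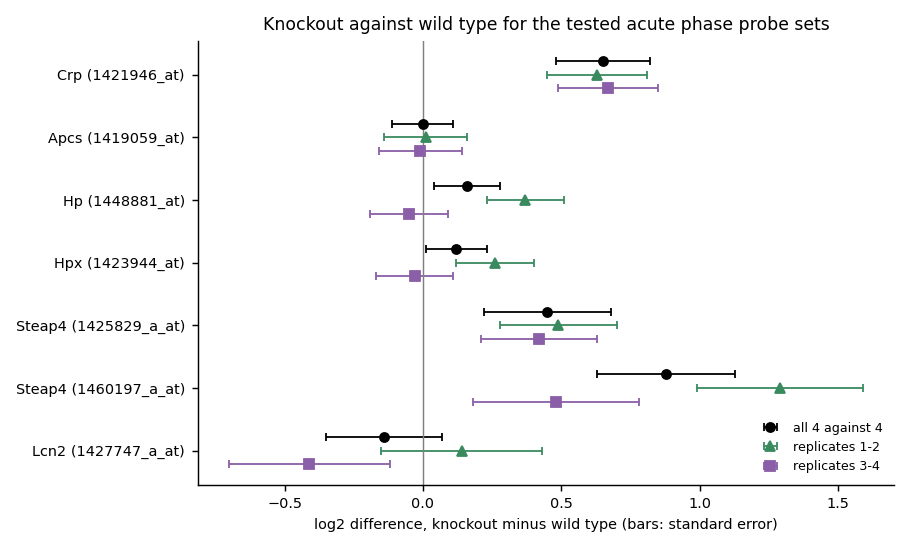
Log2 difference, knockout minus wild type, with its standard error (x axis) for the 7 tested acute phase probe sets, over all arrays (circles), within replicates 1-2 (triangles) and within replicates 3-4 (squares). Crp lies at 0.65, 0.63 and 0.67, whereas Hp, Hpx and Lcn2 lie above 0 within replicates 1-2 and below 0 within replicates 3-4.

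The promoter of Steap4 is shown because it held matches of 4 of the 5 motifs, more kinds than that of any other member. It is the 250 bases before the RefSeq start (GRCm38.p6, chr5:7960222-7960471, plus strand), with motif matches in capitals.
Steap4: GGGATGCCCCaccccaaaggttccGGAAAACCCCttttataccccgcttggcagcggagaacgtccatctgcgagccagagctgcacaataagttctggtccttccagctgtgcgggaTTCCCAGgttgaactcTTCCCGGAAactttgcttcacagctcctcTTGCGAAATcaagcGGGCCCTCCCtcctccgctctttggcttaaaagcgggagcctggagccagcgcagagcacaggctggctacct
The STAT palindrome matched from 116 to 108 bases before the start, the type I element from 87 to 79 and the type II element, on the opposite strand, from 132 to 126. The NF-kappaB pattern gave 5 of the 8 matches, since 2 of its positions match on both strands. The promoter window of Lcn2 held 1 match of the NF-kappaB pattern, and that of Hpx held 0 of the 5 motifs.

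Lcn2 encodes lipocalin 2, which starves bacteria of iron by binding their siderophores and is stored in granules of neutrophils as well as secreted by hepatocytes. Its signals were 4359, 8670, 6500 and 8668 on wild type 1 to 4 and 6336, 7235, 5424 and 5873 on knockout 1 to 4. The knockout arrays all lay within the range of the wild-type arrays. The mean was 7049 ± 2065 in wild type and 6217 ± 774 in the knockout (SD, n = 4 each), with a log2 difference of -0.14 ± 0.21 (SE; limma adjusted p = 0.809). The difference was 0.14 ± 0.29 within replicates 1-2 and -0.41 ± 0.29 within replicates 3-4, and that between the pairs was -0.55 ± 0.41 (limma adjusted p = 0.640). With 1 array left out it ran from -0.35, without wild type 1, to -0.02, without wild type 2 or wild type 4. Markers of granulocytes and their precursors, which newborn liver produces, were measured beside it. All 13 with a probe set were tested, and 0 rose and 0 fell (limma; 3 at an unadjusted p under 0.05), with 8 below 0 and a median of -0.22. Those with the smallest p were the antimicrobial peptide gene Camp, at -0.39, and the chitinase-like Chil3, at 0.94 (limma adjusted p = 0.306 and 0.267). Their summed signal ran from 82011 to 103387 in wild type and from 76250 to 110881 in the knockout, and their part in the level of Lcn2 was not tested. Of the other tested genes, Tspan3 (r = 0.980), the haematopoietic GTPase gene Rac2 (0.978) and Arhgef7 (0.963) were most like Lcn2 over the 8 arrays.

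For the remaining members the most like genes over the 8 arrays were others. Crp was most like Cdc42ep4 (r = 0.990), Dennd11 (0.984) and Secisbp2l (0.982). Steap4 was most like the sodium pump subunit gene Atp1b1 (0.984), the mitochondrial polymerase gene Polg (0.984) and Cluh (0.978), and Apcs was most like Dnal4 (0.974), Erbin (0.945) and Pomc (0.943). These are the highest of 10877 values each over 8 arrays. Between members, r apart from that of Hp and Hpx ran from -0.437 for Crp and Lcn2 to 0.725 for Hp and Steap4.

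Beyond the members, of 23 other positive acute phase proteins tested, 0 rose and 0 fell (limma adjusted p from 0.120 to 0.963; 4 at an unadjusted p under 0.05), with 16 above 0 and a median log2 difference of 0.08. The 2 with the smallest p had opposite signs. A2m, the protease inhibitor alpha-2-macroglobulin, is an acute phase protein of the rat. Its signals were 1260, 1355, 2082 and 1634 on wild type 1 to 4 and 900, 663, 909 and 1146 on knockout 1 to 4. The groups did not overlap, as was the case with the knockout lower for 4.85% of the probe sets tested (log2 difference -0.79 ± 0.20 SE; limma adjusted p = 0.120). Il1rn, the interleukin 1 receptor antagonist, stood at 681 ± 261 in wild type and 1173 ± 303 in the knockout (SD, n = 4 each; 0.80 ± 0.25 SE; limma adjusted p = 0.182), the groups overlapping through wild type 1. Saa3 and Saa4, other serum amyloid genes picked once their values were known, stood at 0.12 and -0.05.

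Of 12 negative acute phase proteins tested, 0 rose and 0 fell (limma adjusted p from 0.115 to 0.965; 1 at an unadjusted p under 0.05), with 10 above 0 and a median of 0.07. Igf1, the liver's growth factor, had a log2 difference of -0.82 ± 0.21 (SE; limma adjusted p = 0.115), with signals of 2670 to 4127 in wild type and 1400 to 2484 in the knockout that do not overlap, as for 4.85% of the probe sets tested. Its 4 tested probe sets lay between -0.82 and -0.71. Fetub, a plasma protease inhibitor, stood at 0.25 ± 0.17 (limma adjusted p = 0.540). Albumin (Alb), chosen after its value was seen, had 23432 ± 3515 in wild type and 23607 ± 2404 in the knockout (SD, n = 4 each), a log2 difference of 0.02.

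Positive and negative acute phase proteins had like signs within each replicate pair. Within replicates 1-2, 20 of the 23 positive and 10 of the 12 negative proteins lay above 0, with medians of 0.37 and 0.28. Beside them were 6 of the 6 members (Apcs at 0.01 ± 0.15 SE), with a median of 0.32. Within replicates 3-4 it was 5 of 23 and 0 of 12, with medians of -0.15 for each list, and 2 of 6 members with a median of -0.02. Of all genes tested, 47.9% and 47.5% lay above 0 in the pairs. Hepatocyte markers had medians of 0.49 and -0.06, with 9 and 4 of 10 above 0, and their part in these values was not tested. The test of the difference between the pairs called 0 of the 23 and 0 of the 12 (limma; 7 and 4 at an unadjusted p under 0.05), beside 0.00981% of all probe sets tested. For the 6 members it called 0, with 0 at an unadjusted p under 0.05 beside 9.92% of all. Within replicates 1-2 limma called 0 of the 6 members (3 at an unadjusted p under 0.05), where 2.38% of all probe sets passed and 23.5% were at an unadjusted p under 0.05. Within replicates 3-4 it called 0 of the 6 (1 at an unadjusted p under 0.05), where 0.00981% and 7.95% did.

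**Figure D3:**
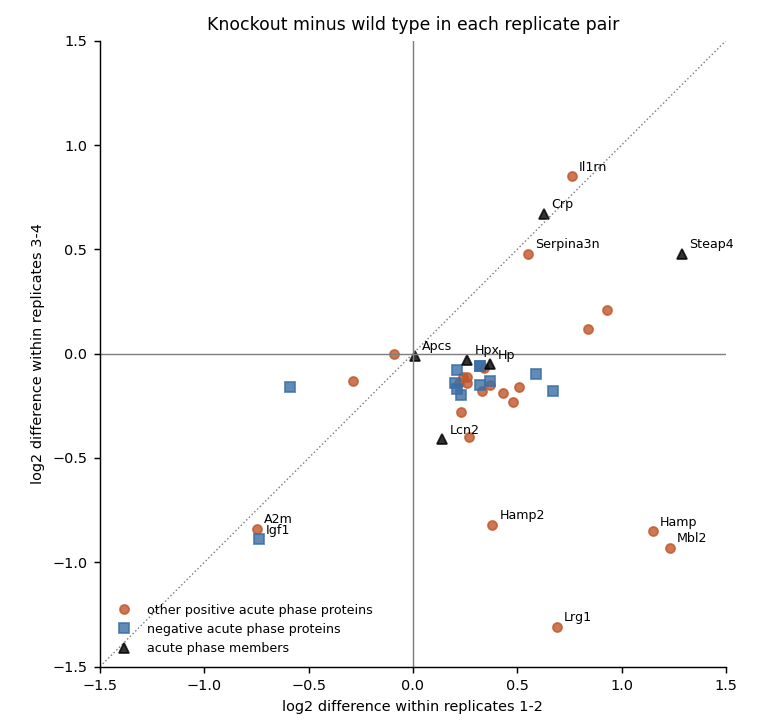
Log2 difference, knockout minus wild type, within replicates 1-2 (x axis) against within replicates 3-4 (y axis) for the 6 tested members (triangles), 23 other positive (circles) and 12 negative (squares) acute phase proteins; the dotted line marks equal values. Most points lie right of 0 and below 0. Points near the dotted line include Crp, Serpina3n, Il1rn, A2m and Igf1, and also Apcs and Saa4, which lie near 0 in both pairs.

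The widest gaps between the pairs were in Mbl2, Hamp and Lrg1, which were chosen after their values were seen. Mbl2, a mannose-binding lectin, had signals of 3163, 3349, 5347 and 10705 on wild type 1 to 4 and of 14054, 4182, 4203 and 3762 on knockout 1 to 4. Hamp, the iron hormone hepcidin, had 3324, 18031, 5454 and 13308 on wild type 1 to 4, then 17144, 17238, 8099 and 2742 on knockout 1 to 4. Lrg1, a leucine-rich glycoprotein, had 1141, 1624, 3070 and 4933 on wild type 1 to 4, then 3433, 1410, 1499 and 1626 on knockout 1 to 4. The spread within a genotype was wide for all 3, and wild type 4 was the highest wild-type array for Mbl2 and Lrg1. Their differences were 1.23, 1.15 and 0.69 within replicates 1-2 and -0.93, -0.85 and -1.31 within replicates 3-4, and the difference between the pairs did not pass (limma adjusted p = 0.485, 0.542 and 0.484). Serpina3n, a protease inhibitor, also chosen after its value was seen, stood at 0.55 and 0.48 in the pairs (0.52 ± 0.16 over all; limma adjusted p = 0.190).

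The signals that induce the acute phase were followed from ligand to transcription factor. The probe sets of the ligands Il6 and Tnf did not reach the signal minimum, with wild-type means of 64.5 and 45.2 and knockout means of 43.4 and 38.8. The interleukin 1 ligands did reach it: Il1b had means of 275 and 255, with 7 of 8 arrays at 200 or more, and Il1a means of 244 and 178, with 4 of 8. Their log2 differences were -0.13 and -0.39 (limma adjusted p = 0.820 and 0.606), and these ligands were chosen after their values were seen. Of 15 genes tested for interleukin 6 and STAT3 signalling, 0 rose and 0 fell (limma; 3 at an unadjusted p under 0.05), with 10 above 0 and a median of 0.10. Il6ra, the ligand-binding receptor subunit, had signals of 601, 540, 535 and 552 on wild type 1 to 4 and of 1132, 967, 914 and 762 on knockout 1 to 4. Every knockout array lay above every wild-type array, as for 4.47% of the probe sets tested, and the log2 difference was 0.73 ± 0.15 (SE; limma adjusted p = 0.0712), with 0.22 on its weaker of 2 tested probe sets. Without wild type 4 it was again 0.73 (limma adjusted p = 0.142). Socs3, the STAT3 target that shuts the receptor off, stood at 514 ± 118 in wild type and 913 ± 289 in the knockout (SD, n = 4 each; 0.78 ± 0.24 SE; limma adjusted p = 0.181), with 1.24 and 0.32 within the pairs and 0.29 on the weakest of its 3 tested probe sets. Stat3 itself, chosen after its value was seen, stood at 0.05.

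Of 20 genes tested for interleukin 1, tumour necrosis factor and NF-kappaB signalling, 0 rose and 0 fell (limma adjusted p from 0.226 to 0.976; 4 at an unadjusted p under 0.05), with 15 above 0 and a median of 0.13. The receptor gene Il1r1 had a log2 difference of 0.54 ± 0.18 (SE; limma adjusted p = 0.226), and Nfkbiz, an inducible cofactor of NF-kappaB, one of 0.65 ± 0.24 (SE; limma adjusted p = 0.247). For Nfkbiz the differences within the replicate pairs were 1.13 and 0.17.

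Among the C/EBP and hepatocyte factors that bind acute phase promoters, 12 of 15 tested lay above 0 with a median of 0.31, and 0 rose and 0 fell (limma; 5 at an unadjusted p under 0.05). Cebpd, the C/EBP factor most inducible in the acute phase, had signals of 601, 443, 438 and 631 on wild type 1 to 4 and of 3134, 1502, 1482 and 910 on knockout 1 to 4. Every knockout array lay above every wild-type array, as for 4.47% of the probe sets tested, with knockout 1 the highest. The mean was 528 ± 102 against 1757 ± 958 (SD, n = 4 each), a ratio of 3.33, and the log2 difference was 1.58 ± 0.31 (SE; limma adjusted p = 0.0712), with 1.0 on its other tested probe set. It was 2.04 and 1.12 within the replicate pairs and 1.67 without wild type 4 (limma adjusted p = 0.111). Cebpg, a C/EBP partner without an activation domain, stood at 0.69 ± 0.20 (limma adjusted p = 0.163), and its 3 tested probe sets ran from 0.04 to 0.69.

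In the fit of all 8 arrays with a shared spread, 9 genes of the lists passed the test for the knockout difference within replicates 1-2. Of all probe sets tested, 2.38% did. They were 2 of 15 genes tested for interleukin 6 signalling, 1 of 20 for interleukin 1 signalling and 1 of 15 C/EBP and hepatocyte factors. The others were 1 of 9 haem clearance genes, 2 of 10 hepatocyte, 1 of 7 erythroid and 1 of 7 fibroblast and stellate markers. None passed among 23 other positive and 12 negative acute phase proteins or 9 siderophore and STEAP partners tested. The same held for the 13 granulocyte, 11 Kupffer cell and macrophage, 8 endothelial, 2 adipocyte and 2 cholangiocyte markers tested. Of the regulators, Cebpd (2.04; limma adjusted p = 0.0406), Il6ra (0.86) and Socs3 (1.24; limma adjusted p = 0.0489 for each) were higher in the knockout. So was the NF-kappaB inhibitor gene Nfkbia (1.19; limma adjusted p = 0.0341), which was chosen after its value was seen. The hepatocyte markers Tdo2 (4.52; limma adjusted p = 0.0207) and F9 (0.98; limma adjusted p = 0.0489) were higher there too. Lower were the biliverdin reductase Blvrb (-1.04; limma adjusted p = 0.0468), the erythroid membrane protein gene Epb42 (-1.58; limma adjusted p = 0.0482) and the collagen gene Col3a1 (-1.05; limma adjusted p = 0.0489). Within replicates 3-4, 0 genes of these lists passed, where 0.00981% of all probe sets tested did. The differences there were 1.12 for Cebpd, 0.60 for Il6ra, 0.32 for Socs3, -0.05 for Nfkbia, 1.03 for Tdo2 and 0.20 for F9. Those of Blvrb, Epb42 and Col3a1 were -0.04, 0.16 and -1.02. Knockout 1 and 2 are the arrays with the highest pyruvate carboxylase ratio, and its part in the calls within replicates 1-2 was not tested.

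**Figure D4:**
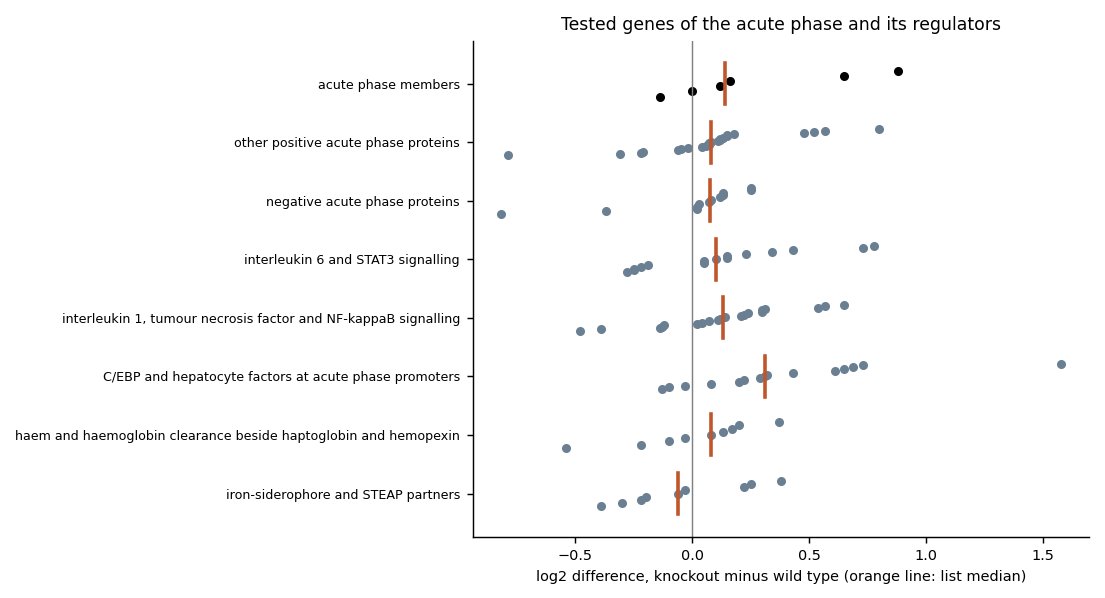
Log2 difference, knockout minus wild type (x axis), for each tested gene (points) of the acute phase members and of 7 related lists; orange lines are list medians. Medians run from -0.06 to 0.31, and the point farthest to the right, at 1.58, is Cebpd.

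Partners of individual members were also followed. Of 9 genes tested for haem and haemoglobin clearance, the fate of what haptoglobin and hemopexin carry, 0 rose and 0 fell (limma; 1 at an unadjusted p under 0.05), with a median of 0.08. The biliverdin reductase Blvrb, which red cell precursors also express, had a log2 difference of -0.54 ± 0.22 and the haem oxygenase Hmox2 one of 0.37 ± 0.20 (SE; limma adjusted p = 0.297 and 0.440). Blvrb stood at -1.04 within replicates 1-2 and at -0.04 within replicates 3-4. Erythroid markers, 7 of which were tested, had a median of -0.12 and 0 calls in either direction (limma; 0 at an unadjusted p under 0.05), Epb42 (-0.71) and Ermap (-0.26) having the smallest p (limma adjusted p = 0.426 and 0.602). Within replicates 1-2 their median was -0.65, with 0 of 7 above 0 and 1 called lower, Epb42 (limma; 4 at an unadjusted p under 0.05). Within replicates 3-4 it was 0.16, with 5 of 7 above 0, where the members' medians were 0.32 and -0.02. Their summed signal ran from 44445 to 55127 in wild type and from 38184 to 58515 in the knockout, and their part in the values of Blvrb and of the members was not tested. Of 9 genes tested for siderophore and STEAP partners, 0 rose and 0 fell (limma; 2 at an unadjusted p under 0.05), with a median of -0.06. Slc11a2, an iron transporter, stood at 0.38 ± 0.17, and Mmp9, the protease that neutrophil Lcn2 binds, at -0.39 ± 0.17 (SE; limma adjusted p = 0.345 and 0.330).

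Markers were used to check the tissue and the other cells it holds. All 10 hepatocyte markers with a probe set were tested, and their summed signal ran from 87250 to 110950 in wild type and from 97127 to 155167 in the knockout, the highest on knockout 1. Of them 0 rose and 0 fell (limma; 4 at an unadjusted p under 0.05), with 7 above 0 and a median of 0.26. The tryptophan dioxygenase Tdo2 (2.78; limma adjusted p = 0.0992) and the clotting factor F9 (0.59; limma adjusted p = 0.221) had the smallest p. Kupffer cell and macrophage markers, the cells that make the inducing cytokines, had 11 of 11 tested, 0 calls (limma; 1 at an unadjusted p under 0.05) and a median of 0.06. Vsig4, a complement receptor gene of Kupffer cells, stood at 0.54 and Cd68 at -0.34 (limma adjusted p = 0.310 and 0.445). The genotypes did not overlap for Vsig4, as was the case with the knockout higher for 4.47% of the probe sets tested. Its lowest knockout signal, 1647, lay just above its highest wild-type signal, 1638. The differences of Vsig4 were 0.95 within replicates 1-2 and 0.12 within replicates 3-4. The summed signal of the 11 ran from 25106 to 36988 in wild type and from 26421 to 44952 in the knockout. The medians were -0.11 for 8 endothelial, -0.35 for 7 fibroblast and stellate, -0.14 for 2 adipocyte and -0.06 for 2 cholangiocyte markers tested, with 0 calls in each (limma; 1, 3, 0 and 0 at an unadjusted p under 0.05). The endothelial receptor gene Kdr stood at -0.50 and Egfl7 at -0.21 (limma adjusted p = 0.230 and 0.460). Of the fibroblast genes, Col3a1 stood at -1.03, from a wild-type mean of 4299 to a knockout mean of 2075, and Lum at -0.52 (limma adjusted p = 0.158 and 0.333). The bile duct markers Krt19 and Epcam stood at 0.01 and -0.13 (limma adjusted p = 0.995 and 0.957).

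Fat tissue is another place in which Steap4 is well known, and 5 adipocyte markers had a probe set. Adipoq and Lep stayed below the signal minimum on all arrays, with wild-type means of 17.3 and 11.7 and knockout means of 28.3 and 15.7. Cidec, a lipid droplet gene, also stayed below it, with a wild-type mean of 22 and a knockout mean of 84.3. The genotypes did not overlap for Cidec, which was not tested. Of the probe sets tested, 4.47% had the knockout higher without overlap. Fabp4 (2799 and 3122) and Retn (313 and 228) were measured, with log2 differences of 0.17 and -0.46 (limma adjusted p = 0.811 and 0.526). The part of adipocytes in the level of Steap4 was not tested.

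The median of the 6 members on each array, relative to the wild-type mean, was 0.36, 0.06, 0.20 and 0.01 on knockout 1 to 4 and ran from -0.14 to 0.16 on the wild-type arrays. On the same arrays the medians of hepatocyte markers were 0.42, 0.12, 0.31 and -0.00 on knockout 1 to 4 and from -0.18 to 0.16 in wild type. Those of the negative acute phase proteins were 0.29, -0.02, 0.08 and -0.04. Knockout 1 was the highest array for each of these lists, and it was also the array with the highest pyruvate carboxylase ratio. The part of RNA quality in these values was not tested.

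**Figure D5:**
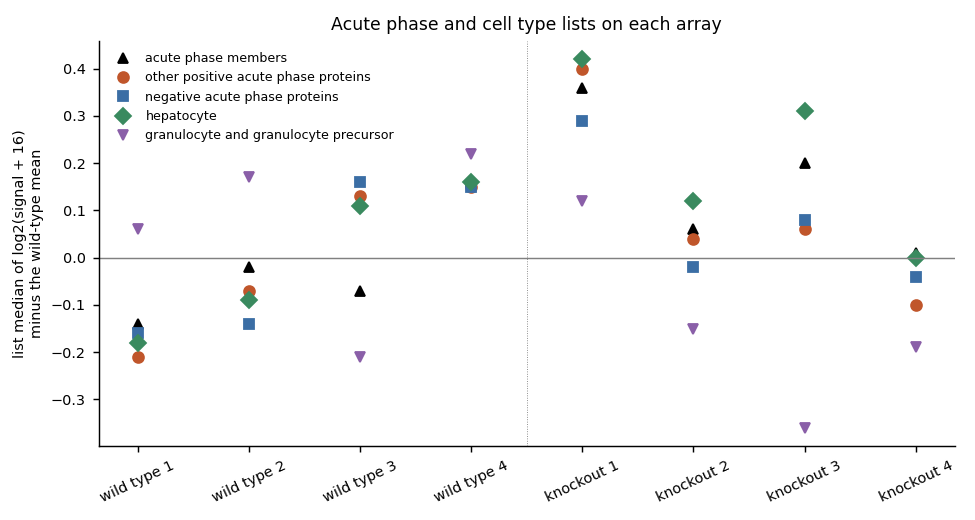
Median over each list of log2(signal + 16) minus the wild-type mean (y axis) on each of the 8 arrays (x axis), for the acute phase members, other positive and negative acute phase proteins, hepatocyte markers and granulocyte markers. Knockout 1 is the highest array for the members (0.36) and for hepatocyte markers (0.42), and the knockout arrays range down to 0.01 for the members on knockout 4.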

How the data were processed

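Per the labels, signal intensities were made with Affymetrix GCOS 1.2 at default settings and scaled by the authors to a target of 500 on every array. The deposited table holds these linear intensities for 45101 probe sets and no detection calls. That scaling was kept. The platform's annotation, updated by Entrez identifier through a RefSeq table (GRCm38.p6), gave 34945 probe sets 1 gene, 932 several and 9160 none, with 64 controls left out.

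Log2(signal + 16) was compared for 20395 probe sets, those reaching a signal of 200 on 4 or more arrays, with limma 3.58.1 in R 4.3.3 (lmFit, eBayes with intensity trend, two-sided, Benjamini-Hochberg over all of them), 4 wild type against 4 knockout. Values within replicates 1-2 and 3-4 and their difference came from 1 fit of all 8 arrays. The comparison was tested on simulated data. A gene with several probe sets is represented by the brightest tested one. Replicate numbers were checked as pairs: deviations of same-numbered arrays correlated at 0.22, 0.40, 0.34 and 0.05, so the numbers were not taken to pair the arrays.

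Members, lists and tests were chosen with earlier results of these data known. All members are named. In each other list the text names up to 4 called genes, or the 2 with the smallest p where fewer than 2 were called, and for each member the 3 genes most like it by Pearson r. Listed genes with no probe set under 1 symbol were not analysed here. Python 3.11.15 with pandas 2.3.3 and matplotlib 3.10.9 made the plots.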

Additional observations from a re-analysis of the deposited data

Results flagged for a closer look

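In 84 groups of 4 arrays, for 42 probe sets of members and named genes, 1 array stood far from the other 3 of its group by Dixon's test, where chance flags about 1 in 20. Il1rn, the interleukin 1 receptor antagonist, had a signal of 1072 on wild type 1 and of 532 to 560 on the other 3 wild-type arrays. None of the 12 acute phase probe sets met this criterion. No member or named gene passed the test of whether the knockout difference itself differed between the replicate pairs (limma, adjusted p under 0.05).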

How the results depend on the processing

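Across 23 alternative analyses, Crp kept its direction in 23 (0.52 to 0.79, limma adjusted p from 0.0514 to 0.317) and Steap4 in 23 (0.48 to 1.29, limma adjusted p from 0.0467 to 0.477). Leaving out each array in turn gave 0.55 to 0.79 for Crp and 0.68 to 1.12 for Steap4, the highest without wild type 4, and 0 members called. The count of members called was 1, Steap4 on its brighter probe set, with the replicate pair as a block and no wild type 4. The second Steap4 probe set stood at 0.42 in that setting (limma adjusted p = 0.212). Where fitted by itself, that probe set ran from 0.27 to 0.59 (limma adjusted p from 0.145 to 0.59).

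The median of the members was 0.32 in a fit of replicates 1-2 alone and -0.02 in one of replicates 3-4 alone, and from 0.07 to 0.19 with 1 array left out (Hp 0.08 to 0.23, Hpx 0.05 to 0.17, Lcn2 -0.35 to -0.02). Signs turned within replicates 3-4 alone for Apcs (-0.01), Hp (-0.05) and Hpx (-0.03). Apcs also turned under quantile normalization (-0.10), and ran from -0.07 to 0.04 with 1 array left out. Lcn2 turned within replicates 1-2 alone (0.14) and stood at 0.00 with the replicate pair as a block and no wild type 4. The causes were not tested.

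Of all probe sets, 61 were called. The count was 21 with no filter, 22 with a signal minimum of 100, 111 with one of 400, 18 without the intensity trend, 184 with the replicate pair as a block, 154 with that block and no wild type 4, 30 within replicates 1-2 alone and 2 within replicates 3-4 alone, and from 2 to 334 with 1 array left out: 2 each time for wild type 2 and 3 and for knockout 2 and 3, 6 without wild type 4, 22 without knockout 1 and 334 without knockout 4. With the replicate number as a block it was 56, with 0 members called (Crp 0.65, limma adjusted p = 0.0748), and the block changed no call of a member. Not every array correlated best with its own number. Quantile normalization and scaling to the 75th percentile moved the median of all probe sets by 0.02 and 0.04. The members' median was 0.08 with quantile normalization and 0.18 with scaling to the 75th percentile, against 0.14 in the main comparison. With quantile normalization Hp stood at 0.11 and Hpx at 0.05.

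Probe sets below a signal of 200 limit what can be said of Saa1, Saa2, Orm1 and Orm2.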
